A study of Caenorhabditis elegans with 4 samples.

Results

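The middle of chromosome V of the nematode Caenorhabditis elegans held 568 of the 9165 regions at which binding of the transcription factor PHA-4 was called in late embryos. These 568 regions, called peaks, were chosen by position alone: every peak on chromosome V whose midpoint lay from 7000000 to below 14000000 on the WormBase WS180 build. They made up 46.0% of the 1235 peaks of that chromosome. The centre of V was set beside the centres of II, III and IV, taken as the middle 33.3% of the span from the first to the last peak of each, with 682, 631 and 610 peaks.

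Binding was measured by ChIP-seq, in which chromatin fragments are precipitated with an antibody and sequenced. The labels describe 2 ChIP libraries, precipitated with a goat antibody against EGFP, and 2 input libraries of chromatin DNA that was not precipitated. All 4 came from hermaphrodite strain OP37 at the late embryo stage, grown at 20 °C and fixed in 2% formaldehyde. The strain carries unc-119(ed3) on chromosome III and the transgene wgIs37, which was introduced by particle bombardment and holds unc-119(+) together with pha-4 joined to TY1, EGFP and 3xFLAG. The precipitated protein was therefore the tagged product of a transgene, and the genotype in the labels lists no change in the native pha-4 gene. Whole embryos were lysed, so a peak does not tell in which cells the site was bound.

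PHA-4 belongs to the FoxA family, whose members bind DNA through a forkhead domain, and it is known as the organ selector of the pharynx, the muscular feeding organ, where it acts on early and late genes alike; it is also expressed in the gut. The autosomes of the worm differ along their length: the centres recombine rarely and hold many conserved genes, while the arms recombine often and are richer in repeats.

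The authors deposited 1 peak list, combined over the replicates, with a start, an end and a q-value from the program PeakSeq for each peak. The q-value is the authors' and serves here to rank and describe peaks within this list. Tag counts and values per library are not in it, so depth is unknown, no value has a replicate error, and no difference between centres was tested. All comparisons below are descriptions of this list. Without a WS180 genome or annotation, genes and sequences at the peaks were not analysed here.

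Peaks were sparser in the centre of V than in the other 3 centres. It held 81.1 peaks per Mb, against 134.0 in the centre of II, 138 in that of III and 105 in that of IV. The density was 0.653 times that of the 3 other centres pooled, and it was 0.606, 0.589 and 0.773 times that of II, III and IV taken singly. The centre of V thus stood nearer to IV than to II and III. The share of sequence under a peak differed less than the number of peaks did. Peaks covered 3.56% of the centre of V, against 4.97% of that of II, 4.52% of that of III and 3.73% of that of IV, which left V and IV close together.

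Per Mb, the number of peaks along the centre of V was lowest at the left end and highest in the right part. The 7 consecutive stretches of 1 Mb held, from left to right, 45, 70, 77, 87, 109, 104 and 76 peaks. The count went up stretch by stretch to the one from 11 to 12 Mb and was lower again beyond 13 Mb. Stretches of the same length held 112 to 168 peaks in the centre of II, 109 to 166 in that of III and 89 to 126 in that of IV. The fullest stretch on V was therefore level with the emptiest one on III and below all of those on II, while V and IV overlapped.

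The right part of the centre, from 10.5 to 14 Mb, held 334 peaks or 95.4 per Mb, and the left part, from 7 to 10.5 Mb, held 234 or 66.9 per Mb. The best-scoring peaks were divided in the same direction. Of the 916 peaks with the lowest q-values in the whole list, hereafter the best 10%, the right part held 31 and the left part 16. These were 9.28% of the peaks in the right part and 6.84% of those in the left part, beside 9.99% of the whole list. Scores as a whole did not follow that order: the median −log10 of the q-value was 5.77 in the right part and 7.10 in the left part. Peaks were thus more numerous on the right, with a lower median score. Median width was similar, at 356 bp in the right part and 346 bp in the left part.

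**Figure D1:**
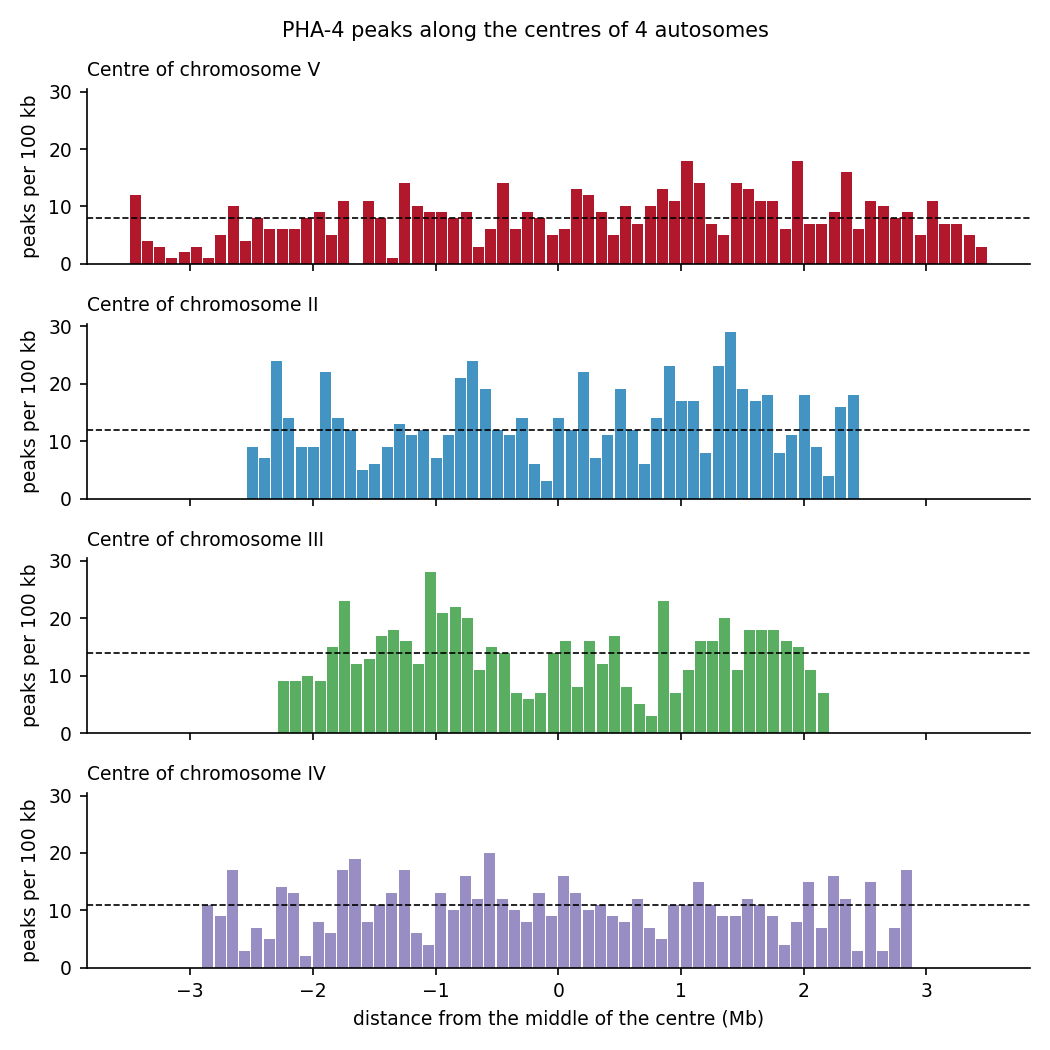
Number of PHA-4 peaks in each 100 kb window (bars) against the distance of the window from the middle of its centre in Mb, for the centres of V, II, III and IV; the dashed line is the median window of each centre. The median window held 8 peaks on V, against 12 on II, 14 on III and 11 on IV, and V had a run of low windows near its left end and an empty window further in.

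The 70 windows of the centre of V held 0 to 18 peaks, with a median of 8. The median was 12 on II, 14 on III and 11 on IV, and the fullest windows there held 29, 28 and 20. Only 1 window on V was empty, from 8800000 to 8899999, and the windows of the other 3 centres held at least 2 peaks each. A further 8 windows on V held 1 to 3 peaks and 7 held 14 or more. Counts varied from window to window with a variance of 1.94 times the mean, against 2.73 on II, 2.18 on III and 1.77 on IV. By this measure the unevenness on V lay within the range of the others, but the measure can depend on the mean count. The mean and standard deviation were 8.11 and 3.97 on V, 13.5 and 6.08 on II, 13.8 and 5.49 on III, and 10.5 and 4.31 on IV. Relative to the mean, the standard deviation was largest on V.

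A thin stretch ran from 7.1 to 7.8 Mb, with limits set by eye after the values were seen. Its 700 kb held 19 peaks, or 27.1 per Mb. Of these, 2 were among the best 10%, both in the last window, from 7700000 to 7799999. It contained 2 of the 3 longest intervals without a peak: 154 kb from 7237529 to 7391965 and 110 kb from 7465858 to 7575548. Only 3 peaks lay between these empty intervals, within 73.9 kb, and the best of the 3 ranked 2118 in the list. The remaining interval of the 3 was 124 kb long, from 8799022 to 8922640, and took in the empty window. The longest distances between neighbours in the centres of II, III and IV were 105, 67.8 and 99.0 kb between midpoints, against 155 kb on V.

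An island of 11 peaks stood out beside that last interval, and was picked after its values were seen. It ran from 8768516 to 8799021 and spanned 30.5 kb, with 101 kb free of peaks to its left and 124 kb to its right. Its median distance between neighbours was 1827 bp. The island held a strong peak and weak ones together: the best, from 8784011 to 8786043, ranked 99 in the list with q = 9.48e-69, and the weakest, from 8791000 to 8791700, ranked 8879 with q = 0.00757. Of the 11, 5 were in the better-scoring 4582 of the list.

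The 2 fullest windows of 100 kb held 18 peaks each. The first ran from 11500000 to 11599999; its best q-value was 1.10e-39, the median 6.47e-08, and the median width 543.5 bp. The other ran from 12400000 to 12499999; its best q-value was 1.52e-22, the median 1.12e-07, and the median width 349 bp. The next, from 12800000 to 12899999, held 16 peaks that scored lower (median q = 9.57e-04). Of the best 10%, 2 peaks lay in the first of these windows and 0 in the other 2. Over the whole centre 8.27% of the peaks were of the best 10%, so counts this small do not set these windows apart. With the 100 kb placed anywhere along the centre, the most that V held was 22 peaks, against 32 on II, 33 on III and 23 on IV.

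The windows with the highest counts of best-scoring peaks were partly different ones. Among the 70 windows, 35 had no peak of the best 10%, 25 had 1, 8 had 2 and 2 had 3. Over the whole centre, 47 peaks or 8.27% were of the best 10%. Counts per window were therefore small, and whether they departed from an even scatter was not tested. The 2 windows with 3 ran from 11600000 to 11699999, with 14 peaks in all, and from 11000000 to 11099999, with 10. Their other peaks scored differently: the median over all peaks was 4.47e-04 in the first and 5.38e-14 in the other. By the rule for ties the next was the window from 9700000 to 9799999, with 9 peaks, 2 of them among the best 10%, and the best peak of the whole centre.

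That best peak ran from 9730780 to 9732248, was 1469 bp wide and had q = 2.04e-83. It ranked 69 in the list. The best peaks in the centres of II, III and IV ranked 19, 3 and 24, and the best on chromosome V as a whole, at rank 17, lay outside its centre from 6226913 to 6228821, 772 kb to the left. Of the 100 best peaks of the list of 9165, the centre of V held 3 among its 568 peaks. The centre of II held 8 among 682, that of III 7 among 631 and that of IV 5 among 610. The other two of those 3 ran from 9343001 to 9344693, 1693 bp wide with q = 1.20e-74, and from 8784011 to 8786043, 2033 bp wide, in the island described above.

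The next 7 peaks by q-value ranked 184 to 293. The first of them, with q = 2.12e-54, ran from 10466448 to 10467367. A peak of 1731 bp from 11673675 to 11675405 had q = 2.22e-51, and one of 644 bp from 11082357 to 11083000 had q = 1.36e-50. The 3 lay in the right part of the centre or close to it. The peak from 13788335 to 13790038 had q = 7.42e-50 and a width of 1704 bp, and the one from 8000828 to 8001544 had q = 7.74e-48. The last 2 were the peak from 9422539 to 9423195, with q = 4.91e-45, and the peak from 10897183 to 10897580, the narrowest of the 10, with q = 1.74e-43. The 10 best peaks fell in 5 of the 7 stretches of 1 Mb. The stretch from 12 to 13 Mb, which had 104 peaks in all, held 0 of them, and so did the stretch from 7 to 8 Mb. Their widths ran from 398 to 2033 bp, and 5 were over 1000 bp wide.

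The neighbours of these 10 peaks ranged from strong to weak. The best peak had its nearest neighbour 1555 bp away, midpoint to midpoint, at rank 618. The peak at rank 184 had one 2061 bp away at rank 9161, near the end of the list, and the peak at rank 248 had one 819 bp away at rank 7220. Of all peaks in the centre of V, 8.27% were among the best 10% and 50.9% in the better-scoring 4582. For 2 of the 10 the nearest neighbour was itself among the best 10%, and for 4 it was outside the better-scoring 4582. The peaks at ranks 214 and 387 were such a strong pair, 1228 bp apart. The peak at rank 204 was the most isolated of the 10, at 9497 bp from its nearest neighbour.

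**Figure D2:**
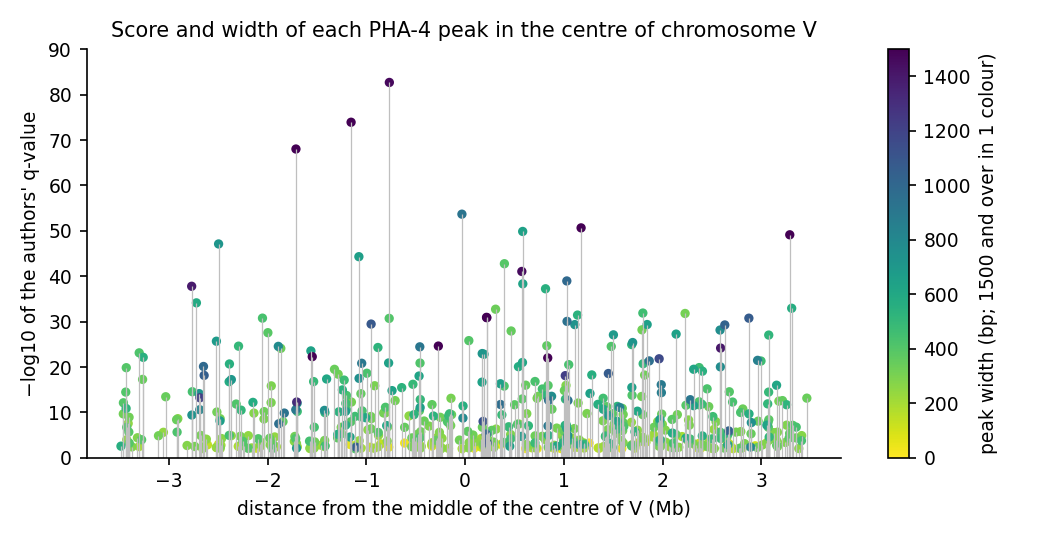
Each of the 568 PHA-4 peaks of the centre of V, with −log10 of the authors' q-value against the distance from the middle of the centre in Mb; colour gives the peak width in bp. The 3 peaks above 60, with 82.7, 73.9 and 68.0, lie left of the middle, and 496 of the 568 lie below 20.

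In every range of scores the centre of V held fewer peaks per Mb. The list was divided by rank into 5 bands. In the best 10% (ranks 1 to 916, q of at most 3.51e-25) V had 6.71 peaks per Mb, against 14.9 on II, 15.1 on III and 8.95 on IV, a ratio of 0.528 to the 3 pooled. In the 4 bands below it that ratio was 0.704, 0.631, 0.614 and 0.746, from better to worse scores. The ratio to the 3 pooled was therefore below 1 in all 5 bands. It was lowest in the best band, which held only 47 peaks on V, and showed no steady order with score in the other 4. Taken singly, the ratio in the best 10% was 0.450 to II and 0.446 to III, beside 0.606 and 0.589 for all peaks. Against IV it changed little, with 0.751 in the best 10% and 0.773 for all peaks. Within the centre of V, 47 peaks or 8.27% belonged to the best 10%, beside 9.99% of the whole list, 11.1% on II, 10.9% on III and 8.52% on IV.

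**Figure D3:**
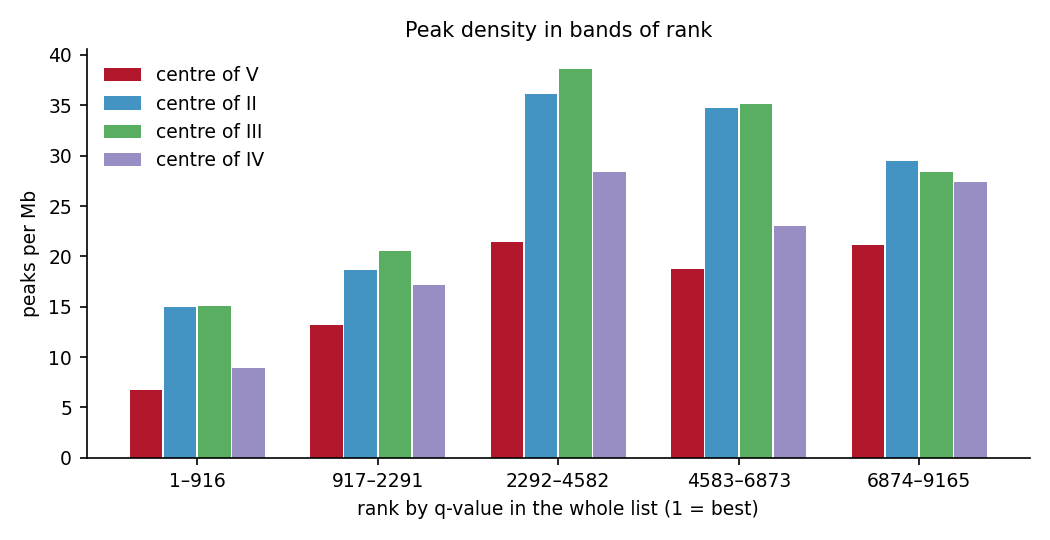
Peaks per Mb (bars from 0) in 5 bands of rank by the authors' q-value, for the centres of V, II, III and IV. V has the lowest bar in each band, from 6.71 per Mb in the best band to 21.1 in the last, where II, III and IV have 29.5, 28.4 and 27.4.

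The median score differed little between the 4 centres. The last band took a like share on V and IV, and a smaller one on II and III. The median −log10 of the q-value was 6.19 on V, 6.26 on II, 6.43 on III and 6.25 on IV. A q-value below 1e-10 was reached by 186 peaks or 32.7% on V, near the 32.2% of the whole list and the 32.7, 33.8 and 34.1% on II, III and IV. The better-scoring 4582 peaks, 50% of the list, included 289 or 50.9% of those on V. The last band, ranks 6874 to 9165 of the 9165, held 148 or 26.1% of the peaks on V. It held 22.0% on II, 20.6% on III and 26.1% on IV.

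Peaks were wider in the centre of V. The median was 355 bp with quartiles at 273 and 530 bp, against medians of 293.5 bp on II, 278 bp on III and 306.5 bp on IV. The rest of chromosome V shared this in part, with a median of 336 bp left of the centre and 309 bp right of it. Fewer were narrow. Of the 568 peaks on V, 51 or 8.98% were narrower than 200 bp, whereas the share was 19.2% in the whole list, 21.8% on II, 25.5% on III and 20.8% on IV. Per Mb there were 7.29 narrow peaks on V against 28.2 in the 3 other centres pooled, a ratio of 0.258. Among peaks of at least 200 bp the ratio was 0.770, with 73.9 per Mb on V against 96.0 in the 3 pooled.

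The narrow peaks scored poorly on V, as in the other centres. None of the 51 on V was in the better-scoring 4582, their median q-value was 0.00397 and the best reached 1.94e-05. Among those 4582 peaks, the centres of II and IV had 0 narrow ones as well. III had 8 of its 161, all from rank 2292 on. Another 9 peaks on V were exactly 200 bp wide, and 4 of the 51 were narrower than 10 bp. Narrow peaks were infrequent elsewhere on V too, with 43 of 379 or 11.3% left of the centre and 47 of 288 or 16.3% right of it.

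The wider median on V was also seen when peaks of like score were compared, except among the best. In the best 10% the median width was 657 bp on V, between the 590 bp of III and the 674 bp of IV. From rank 917 to 2291 it was 526.5 bp on V, against 416 bp on II, 394.5 bp on III and 430.5 bp on IV. The same order was seen in each band below that. In the last, from rank 6874 to 9165, V had 236.5 bp, against 152.5 bp on II, 130 bp on III and 173 bp on IV, and the lower quartile on V (172 bp) was about level with the median on IV. In that band 29.7% of the peaks on V were narrow, against 74.0% on II, 80.0% on III and 62.9% on IV. Below the best 10%, peaks with the same standing in the list thus spanned longer regions on V.

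**Figure D4:**
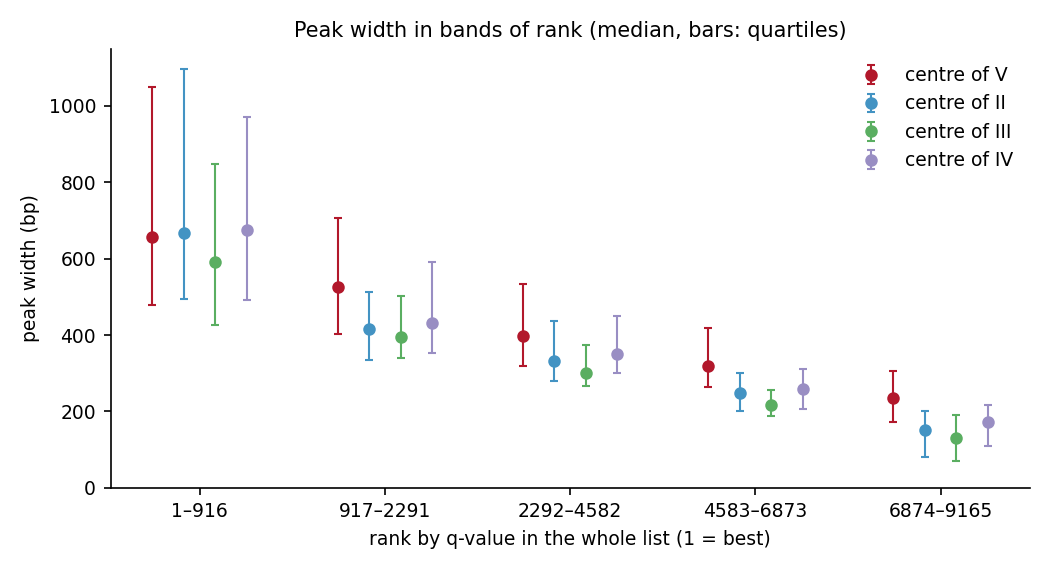
Width of PHA-4 peaks in bp in 5 bands of rank by the authors' q-value, with the median (points) and quartiles (bars) for the centres of V, II, III and IV. V lies among the others in the best band and above them in the 4 bands after it, by 114.5 bp from rank 917 to 2291 and by 83.5 bp in the last band, relative to the 3 pooled.

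Width and score were also less tightly tied on V. Across its 568 peaks Spearman's rho between width and −log10 of the q-value was 0.67, against 0.82 on II (682 peaks), 0.83 on III (631) and 0.82 on IV (610). These peaks share their libraries and the caller, which computes a q-value from the tags of the whole region, so the coefficients are descriptions only. Narrow peaks, which scored poorly, were fewer on V, and whether the lower rho is separate from that was not tested.

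At the other end of the width range, 27 peaks on V or 4.75% were over 1000 bp, beside 3.08% of the whole list, 3.96% on II (27 peaks), 2.06% on III (13) and 2.13% on IV (13). Their median width was 1316 bp on V, 1333 bp on II, 1390 bp on III and 1284 bp on IV, and the widest on V, at 2304 bp, was shorter than the widest on II (3636 bp) and III (3063 bp). Fewer of the broad peaks on V were strong: 13 of the 27 were in the best 10%, compared with 23 of 27 on II, 12 of 13 on III and 10 of 13 on IV. On V, 4 broad peaks fell outside the better-scoring 4582, where the other 3 centres had 0. The lowest of them, 1058 bp wide from 9394442 to 9395499, ranked 8371 with q = 0.00456.

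The widest peaks of the centre lay side by side. The widest, 2304 bp from 10718292 to 10720595 (q = 1.36e-31), and the next, 2087 bp from 10715398 to 10717484 (q = 1.14e-31), had 807 bases between them and almost equal scores. They were flanked by peaks of 1038 bp from 10711561 to 10712598 (q = 6.58e-06) and 1108 bp from 10722649 to 10723756 (q = 5.33e-04). These 4 formed the largest group of broad peaks in the centre when those with less than 20 kb between midpoints were joined, a limit set after the values were seen. They covered 6537 of 12196 bp, or 53.6% of the stretch, with no other peak among them. The other peaks among the 5 widest were the one of 2033 bp in the island of 11 peaks, one of 2027 bp from 8949352 to 8951378 (q = 5.25e-23) and one of 1731 bp from 11673675 to 11675405.

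Neighbouring peaks lay further apart on V. A lower density by itself gives longer distances, so the spacing described here is not independent of the density given above. The median distance between midpoints was 5506.5 bp, with quartiles at 1693 and 16974 bp, against medians of 3606 bp on II, 3547 bp on III and 3710 bp on IV. Of 567 distances, 274 or 48.3% were under 5 kb, against 59.5% on II, 57.3% on III and 56.0% on IV. Long distances were more frequent on V: 119 or 21.0% were over 20 kb, against 10.1% on II, 7.30% on III and 13.3% on IV. The lower quartile was also longer on V, by less than the median: it was 1466 bp on II, 1544 bp on III and 1417 bp on IV.

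Distances from 1 to 2 kb made up a like share in all 4 centres, at 18.3% on V, 19.8% on II, 18.4% on III and 18.9% on IV. The shares parted below and above that range. Under 1 kb V had 10.1%, against 15.0% on II, 13.8% on III and 15.4% on IV, and from 2 to 5 kb it had 19.9%, against 24.7, 25.1 and 21.7%. No neighbours on V were separated by fewer than 200 bases, and the same smallest gap was met on II and III. Per Mb, distances from 20 to 50 kb were the one class below 50 kb in which V stood highest, with 14.4, against 12.2 on II, 9.17 on III and 11.5 on IV.

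**Figure D5:**
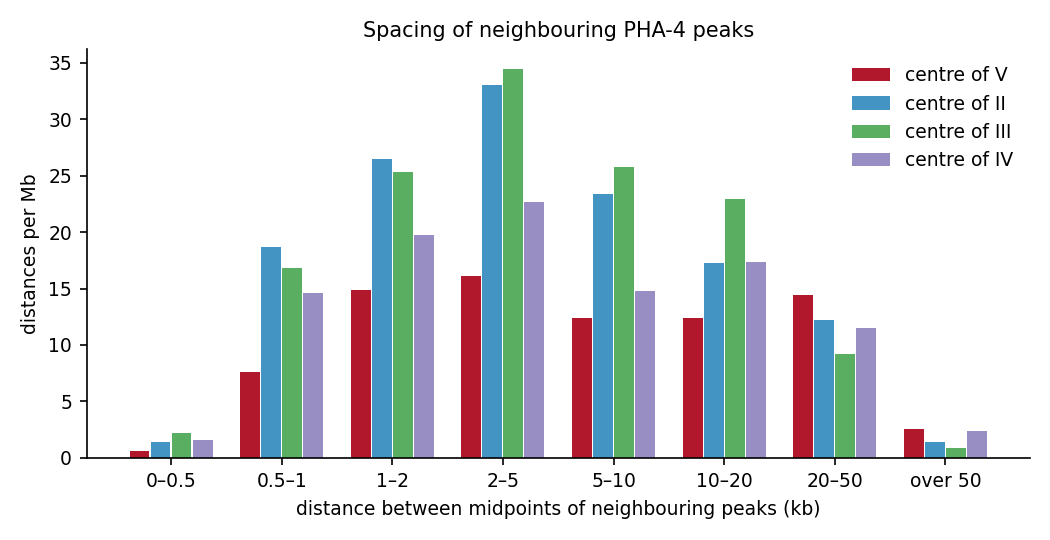
Number of distances per Mb (bars from 0) between midpoints of neighbouring PHA-4 peaks, by class of distance in kb, for the centres of V, II, III and IV. V has the lowest bar in every class up to 20 kb and the highest in the class from 20 to 50 kb, with 14.4 per Mb.

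The tightest run of 10 peaks was longer on V than in the centres of II, III and IV, which is not separate from its lower density of peaks. The shortest stretch with 10 peaks in a row was 17988 bp on V, against 10553 bp on II, 8422 bp on III and 13022 bp on IV. It ran from 10031453 to 10049440, with a median distance of 1435 bp between neighbours and widths of 275 to 909 bp. None of its peaks was in the best 10%, though 6 were in the better-scoring 4582 and the best, from 10039746 to 10040654, ranked 918 with q = 3.54e-25.

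The next such runs lay in the fullest windows. One was 20427 bp long, from 11521479 to 11541905, and held 2 peaks of the best 10%: 991 bp from 11529383 to 11530373 (q = 1.10e-39) and 943 bp from 11531882 to 11532824 (q = 8.70e-31). A peak of 675 bp between these scored far lower (q = 4.27e-07). The other run was 23653 bp long, from 12464855 to 12488507, and held 0 peaks of the best 10%. Its strongest peak stood at the left end, 1166 bp from 12464855 to 12466020 (q = 1.52e-22), and the next strongest pair at the right end, with q = 7.89e-17 and 4.36e-15. Each of the 3 runs had 6 of its 10 peaks in the better-scoring 4582.

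At the left limit of the centre the first peak inside, from 7011563 to 7012124, was 562 bp wide with q = 0.00268, and the last outside, from 6998301 to 6998818, was 518 bp wide with q = 3.58e-05. At the right limit the last peak inside, from 13962035 to 13962375, was 341 bp wide with q = 7.12e-14, and the first outside, from 14002399 to 14002947, was 549 bp wide with q = 8.36e-10.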

How the data were processed

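Late embryos were profiled by ChIP-seq, with 2 ChIP and 2 input libraries per the labels. Per the file headers, the authors called peaks with PeakSeq on WormBase WS180 and deposited 1 list, named as combined, with a q-value for each peak. It is written in 2 places, identically in all 9165 peaks. Aligner, versions and pooling were not given in the sources used here. Positions are 1-based. The only gene table is on WBcel235 and was not used.

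Ranks follow the q-value, then chromosome and start. Width is end minus start plus 1. Distances run between midpoints of neighbours inside a centre, and windows of 100 kb were laid from the start of each centre. Named were the 10 peaks with the lowest q-values, the 5 widest, the 3 fullest windows, the 3 windows with most of the best 10%, the 3 shortest runs of 10 peaks, the 3 longest empty intervals, empty windows and the peaks at each limit. Region, quantities and rule were chosen with earlier results of these data known. The bands of rank and the counts of narrow and broad peaks were added after the widths were seen. No test was made, since the list carries no values per library. Binomial intervals (95%), used only to sort the recomputed values of the closing section, treat peaks as independent. Alternatives were other subsets of the list, merging, window sizes and limits of the centres. Python 3.11.15, pandas 2.3.3, numpy 2.4.6, scipy 1.17.1 and matplotlib 3.10.9 were used, and the functions were tested on simulated data.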

Additional observations from a re-analysis of the deposited data

How the results depend on the processing

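A value counted as kept when it stayed in the 95% binomial interval of the value reported (for the peak density and for the variance over the mean of window counts, within 1.5 times it). Of 38 recomputed values for 8 results, 24 were kept. Leaving out peaks under 200 bp and taking the middle 33.3% of the span of V were added after seeing the data. The ratio of densities, 0.653, stayed below 1 throughout: it was 0.528 in the best-scoring 10% and 0.770 among peaks of at least 200 bp, and 0.598 to 0.685 otherwise. By construction of the subset or of merging, the median width became 463 bp in the better-scoring 50% of the list, 657 bp in the best 10%, 382 bp without peaks under 200 bp and 396 bp after merging over 1000 bases. In the same way the median distance became 11828 bp in the better-scoring 50% and 9145.5 bp after that merging, and the share under 5 kb became 31.6% in each. Merging over 1000 bases also gave a median −log10 of the q-value of 7.19 and a variance of 1.28 times the mean, which was 3.05 in windows of 500 kb. Without the widest 5% of the list, and with the q limit of the best 10% kept, 5.92% of the peaks on V were in the best 10%. That fall too follows from the subset, since wider peaks tended to score better. No paired analysis was possible because the authors' list gives 1 q-value a peak, with none by library, which also leaves no replicate to drop. Depth limits cannot be given without tag counts.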
